A study of Mus musculus with 9 samples.

Results

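Open chromatin was compared between cells with the highest and the lowest Sox2-EGFP signal in the cochlear duct of mouse embryos at the embryonic stage E14.5. The comparison comprised the 3 E14.5 peak lists of the 9 lists in the series: Sox2-EGFP+ cells in replicates 1 and 2, which the study calls Sox2-EGFPhigh+, and Sox2-EGFP- cells in replicate 2 only. Members were chosen by these sample labels. All 3 came from the strain B6;129S-Sox2tm2Hoch/J, whose Sox2 coding region is replaced by EGFP on 1 allele, so that EGFP reports the Sox2 promoter and every cell of both groups carries the knock-in allele. Each Sox2-EGFP+ replicate pooled the cochlear ducts of 1 litter, and Sox2-EGFP- cells were collected alongside in some cases. Nerve tissue and most of the mesenchyme had been dissected away, and cells were sorted by EGFP without further treatment. The paper reports accessible fibroblast marker genes in Sox2-EGFP- cells and considers it possible that otic fibroblasts were among the sorted cells. The gate limits what the groups stand for: cells with low or intermediate EGFP, which include some nonsensory cells of the duct, were left out, and Sox2-EGFP- names all remaining cells of the dissected tissue, not a cell type. The 3 libraries shared a sequencing batch.

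ATAC-seq marks DNA that is not wrapped tightly by nucleosomes, because the Tn5 transposase inserts sequencing adapters there, and regions with many insertions are called as peaks. Such regions are promoters, which tend to be open in most cell types, and distal elements such as enhancers, which differ more between cell types. In the floor of the cochlear duct, Sox2 marks the prosensory cells from which hair cells and supporting cells of the organ of Corti arise. Eya1, Gata3 and Pax2 act in the same progenitors, the Grhl factors maintain epithelia, and the tissue around the duct is mesenchyme, in which Pou3f4 and Tbx18 are transcription factors with roles in ear development.

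The lists held 66281 peaks in Sox2-EGFP+ replicate 1, 22922 in Sox2-EGFP+ replicate 2 and 23263 in Sox2-EGFP-, on the autosomes and the sex chromosomes of the mm9 build. The files hold peaks and no read numbers, so no depth is given for a value. By the read totals that the study lists, which were not used here, Sox2-EGFP+ replicate 1 was not the most deeply sequenced library. The share of reads in peaks that the study lists was far higher in this replicate than in the other 2 E14.5 libraries. What made its list longer was not tested. The median −log10 p of a peak was 23.7, 9.61 and 11.5 in the same order, and the median fold enrichment over the local background was 7.75, 4.28 and 4.31. Sox2-EGFP+ replicate 1 thus stood apart in peak number and height from the other 2 lists, which were alike. The authors had removed every peak with no counterpart in a further list of its own kind (Sox2-EGFP+ or Sox2-EGFP-), whatever the stage. With 2 samples against 1, an exact two-sided permutation test cannot give a p below 0.333, so no test was made between the groups and the values below are a description. Intervals cover counting error only.

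Merging the lists at 100 bp gave 68694 regions, of which 13710 had a peak in all 3 lists. A total of 7146 regions, 10.4% of all, had a peak in both Sox2-EGFP+ lists and none in the Sox2-EGFP- list, and are called Sox2-EGFP+ only. The reverse, a peak in the Sox2-EGFP- list and none in either Sox2-EGFP+ list, was seen in 2900 regions, 4.22% of all, called Sox2-EGFP- only. A further 39841 regions had a peak in Sox2-EGFP+ replicate 1 alone, against 154 in Sox2-EGFP+ replicate 2 alone. These counts follow the length of the lists. Without Sox2-EGFP+ replicate 1, the remaining lists gave 7753 Sox2-EGFP+ only and 8441 Sox2-EGFP- only regions, so that the larger number of Sox2-EGFP+ only regions rests on that replicate.

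**Figure D1:**
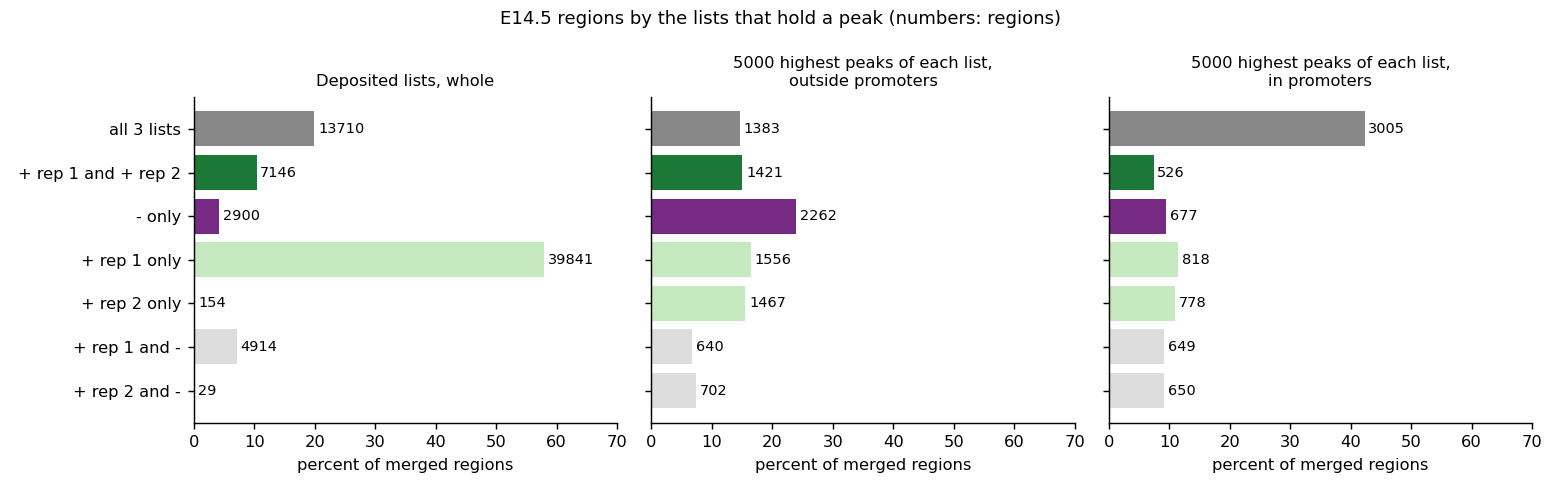
Percent of merged E14.5 regions (x axis) by the lists that hold a peak (y axis), for the whole lists and for the 5000 highest peaks of each list outside and in promoters; the number beside each bar counts regions. Outside promoters the Sox2-EGFP- list alone holds 2262 regions, and in promoters all 3 lists share 3005.

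The 3 highest-ranked regions outside promoters of each call are shown here, as the 121 bases around the peak summit, on the plus strand of mm9. Capitals mark the letters of any of 7 short motifs that are described with the motif counts below. None of these 6 sequences holds one.
Zfp36l2 region, chr17:84425730-84425850: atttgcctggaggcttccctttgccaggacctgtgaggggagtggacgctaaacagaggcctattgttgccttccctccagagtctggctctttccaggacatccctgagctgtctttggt
Trpv4 region, chr5:115114876-115114996: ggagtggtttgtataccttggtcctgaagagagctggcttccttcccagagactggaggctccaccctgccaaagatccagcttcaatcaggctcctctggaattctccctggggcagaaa
Nck2 region, chr1:43640569-43640689: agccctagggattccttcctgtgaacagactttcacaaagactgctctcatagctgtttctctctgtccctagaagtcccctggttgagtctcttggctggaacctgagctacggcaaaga
Lama4 region, chr10:37841838-37841958: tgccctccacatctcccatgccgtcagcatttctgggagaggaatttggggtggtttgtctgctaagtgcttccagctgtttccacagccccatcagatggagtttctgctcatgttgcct
P4ha2 region, chr11:53954068-53954188: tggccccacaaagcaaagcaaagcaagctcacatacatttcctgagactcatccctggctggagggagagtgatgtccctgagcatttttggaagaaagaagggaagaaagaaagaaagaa
Dnm3 region, chr1:164147633-164147753: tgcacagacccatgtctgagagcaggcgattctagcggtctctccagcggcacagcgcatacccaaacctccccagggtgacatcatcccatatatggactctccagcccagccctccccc

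The region 161 kb downstream of the start of Zfp36l2, which encodes an RNA-binding protein of mRNA decay, ranked 231 in Sox2-EGFP+ replicate 1 and 650 in replicate 2, with fold enrichments of 14.3 and 6.43. The region at -6.53 kb from the start of Trpv4, which encodes a cation channel (negative offsets are upstream), ranked 671 and 238, with fold enrichments of 10.8 and 6.91. Nck2, a signalling adaptor, had a region at 138 kb that ranked 398 and 529. None of the 3 had a peak in the Sox2-EGFP- list. In that list, the region with the best rank among those without a Sox2-EGFP+ peak lay at -843 kb from Lama4, which encodes a laminin chain of basement membranes, and ranked 561 with a fold enrichment of 9.80. It was followed by regions nearest to P4ha2, an enzyme of collagen synthesis, at rank 787, and to Dnm3, a dynamin, at rank 1004. The nearest start site names a region and is not evidence that the region acts on that gene.

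The other 7 of the 10 highest-ranked Sox2-EGFP+ only regions outside promoters lay nearest to Dip2b, Elmo1, Epb4.1l1, Rasl11b, Snx18, Gm8226 and Slc16a7, with mean ranks between 510.5 and 936.5. The other 7 of Sox2-EGFP- lay nearest to Nos2, Clec7a, Eif3h, Erc2, Fbxw4, Rpl34 and Ptbp2, at ranks 1166 to 2117. The single Clec7a region is the only one among these 20 that lay nearest to a gene of the macrophage and myeloid list used below. In promoters, the best Sox2-EGFP+ only regions were those of Prkcz, a kinase of apical-basal polarity, at ranks 1253 and 801, and of 1700027A23Rik, Ttll10, D630013G24Rik and Myo10. The best Sox2-EGFP- only promoter regions, of 2610017I09Rik, Emilin1, Gm10718, Gng8 and Dux, ranked 5623 or lower. Emilin1 encodes a glycoprotein of elastic fibres. Gm10718 and Dux are members of repeated families, where reads may come from several near-identical copies, so those 2 regions are uncertain.

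In the whole lists both kinds of called region lay mostly away from promoters, defined as 1000 bp upstream to 100 bp downstream of a protein-coding start. Outside promoters were 93.8% (95% exact binomial interval 93.3 to 94.4) of the Sox2-EGFP+ only and 97.3% (96.6 to 97.8) of the Sox2-EGFP- only regions, against 50.9% (50.1 to 51.7) of the shared regions. This depends on the list length: with the 5000 highest peaks of each list the shares were 67.5% and 46.4%, and with 2000 they were 48.0% and 34.6%, so the order of the calls turned round. Introns held 43.0% and 41.2% of the called regions, and intergenic sequence held 45.3% and 53.6%. Sox2-EGFP- only regions lay over 100 kb from the nearest start in 27.7% of cases and Sox2-EGFP+ only regions in 20.2%. The Sox2-EGFP+ only regions had a median width of 681 bp and the Sox2-EGFP- only regions of 304 bp, which differ also because the former merge peaks of 2 lists.

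The lists were then taken at equal length, so that a longer list could not hold more peaks. Among the 5000 highest peaks outside promoters of each list, 56.3% of peaks overlapped between the Sox2-EGFP+ replicates (mean of both directions), against 40.5% between replicate 1 and Sox2-EGFP- and 41.8% between replicate 2 and Sox2-EGFP-. Among the 10000 highest, the values were 60.6%, 42.7% and 41.7%. Outside promoters, the Sox2-EGFP- list was therefore farther from each Sox2-EGFP+ list than these were from each other. Among the 1000 highest the distance was small, at 41.5% between replicates against 34.4% and 39.3%. In promoters the order was the reverse. Of the 5000 highest promoter peaks, 71.0% overlapped between the Sox2-EGFP+ replicates and 73.3% and 73.4% between each of them and Sox2-EGFP-, so that promoter peaks did not set the groups apart beyond the replicates.

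**Figure D2:**
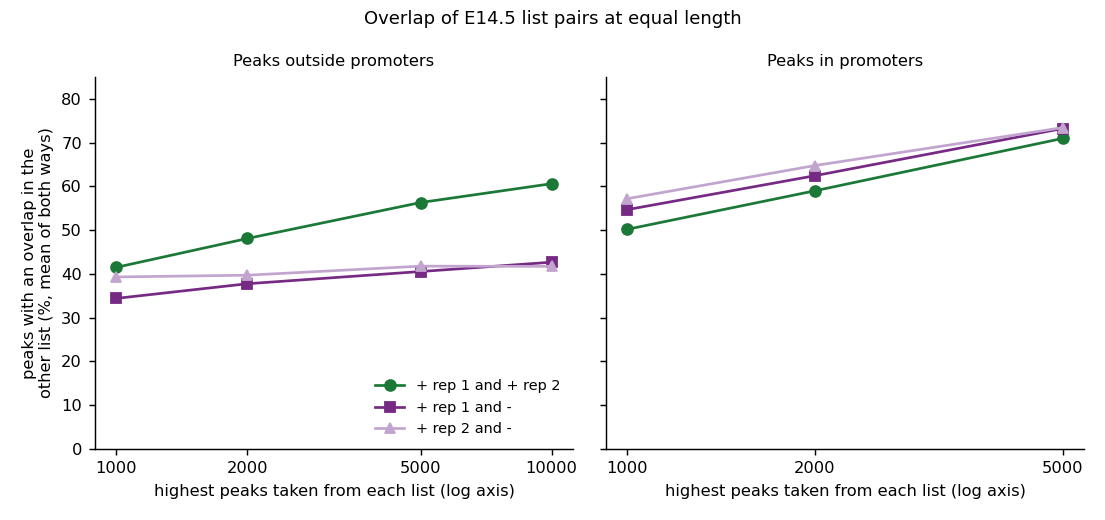
Share of peaks with an overlap in the other list (y axis, %, mean of both directions) against the number of highest peaks taken from each list (x axis, log scale), for the 3 pairs of E14.5 lists. Outside promoters the Sox2-EGFP+ pair reaches 60.6% at 10000 peaks while the pairs with Sox2-EGFP- stay at 42.7% and 41.7%; in promoters the 3 pairs run together.

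At equal length the Sox2-EGFP- list held the larger number of own regions. Of the 9431 regions made by the 5000 highest peaks outside promoters, 2262 (24.0%) were Sox2-EGFP- only, 1421 (15.1%) Sox2-EGFP+ only and 1383 shared, while 1556 and 1467 had a peak in only 1 of the Sox2-EGFP+ replicates. A Sox2-EGFP+ only region needs 2 lists to hold a peak and a Sox2-EGFP- only region needs 1, so the counts of the 2 calls are not directly comparable. With 10000 peaks the shares were 24.8% Sox2-EGFP- only and 16% Sox2-EGFP+ only of 18385 regions.

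Genes were ordered by the number of regions of each call nearest to them, so that the leading genes differ between the calls follows from the choice. Of 17080 genes with a region, Sox2-EGFP+ only regions were nearest to 4676 and Sox2-EGFP- only regions to 2130, and 1083 genes had both. The most Sox2-EGFP+ only regions, 10 each, lay nearest to Eya1, a phosphatase and transcriptional coactivator of ear formation, and to Zbtb20, which encodes a zinc finger repressor. Tcf7l2, a Wnt effector, and Epha4, an ephrin receptor, had 9 each, and Thrb, the thyroid hormone receptor needed for hearing, had 8, as did Fggy, Med13l and Clint1. Slc39a11 and Nfib had 7. In the other direction, 8 Sox2-EGFP- only regions each lay nearest to Rarb, a retinoic acid receptor, Ets1, a factor of mesoderm and endothelium, and Runx1t1, a corepressor. C130026L21Rik and Auts2 had 6, and Adamts20, Fat4, Cnbd1, Rad51l1 and A2ld1 had 5. Most of these genes had regions of both calls. In the first group only Slc39a11 had no Sox2-EGFP- only region, and in the second only Rarb, Adamts20 and Cnbd1 had no Sox2-EGFP+ only region. Long genes and gene-poor neighbourhoods collect more regions of any kind: Auts2 had 76 regions in all and Eya1 25.

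The prosensory genes were taken as a list of 26, all with at least 1 region nearby. Of their 357 regions, 60 (16.8%) were Sox2-EGFP+ only and 12 (3.36%) Sox2-EGFP- only, beside 10.4% and 4.22% of all regions. In such mixed samples, fewer cells of a type and a weaker signal per cell cannot be told apart. In this list and the others, up to 4 genes were named for having the most called regions, and further well-known members were added with their values known. More Sox2-EGFP+ only than Sox2-EGFP- only regions were seen at 18 of the 26 genes, and fewer at 2. Among all 17080 genes with a region these numbers were 4003 and 1218. In the equal lists of 10000 peaks outside promoters the excess over Sox2-EGFP- only regions was not seen: of the regions near the prosensory genes 20 (19.8%) were Sox2-EGFP+ only and 23 (22.8%) Sox2-EGFP- only, beside 16% and 24.8% of all, with more Sox2-EGFP+ only at 7 genes and fewer at 9. At Sox2, 38 of 38 regions had a peak in Sox2-EGFP+ replicate 1, 8 in replicate 2 and 3 in Sox2-EGFP-. The promoter of Sox2, at chr3:34548160-34549184, was open in all 3 lists, with ranks of 15423, 17324 and 10241 and fold enrichments of 6.17, 3.35 and 5.00, so the promoter did not separate the sorted groups. Its 7 Sox2-EGFP+ only regions lay at offsets between -139 and 464 kb from the start, and the one at -117 kb, chr3:34431206-34431894, ranked 2988 and 9947 in the Sox2-EGFP+ lists.

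Eya1 had 10 Sox2-EGFP+ only regions and 1 Sox2-EGFP- only region, 6 of the 10 in introns. Of its 25 regions, 24 had a peak in Sox2-EGFP+ replicate 1, 13 in replicate 2 and 4 in Sox2-EGFP-. Gata3, a zinc finger factor whose loss causes deafness, and Pax2, a paired-box factor of the otic placode, had 5 Sox2-EGFP+ only regions each and no Sox2-EGFP- only region. The Gata3 region at -6.16 kb, chr2:9817445-9818187, ranked 6355 and 6728. Sox9 had 4 and 1, Id2 4 and 1, and Isl1, a LIM factor of sensory progenitors, 3 and 0. Fgf20, a growth factor of the prosensory domain, had 3 and 0. Jag1, a Notch ligand of the prosensory domain, went against the genes named so far, with 2 Sox2-EGFP+ only and 3 Sox2-EGFP- only regions.

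Epithelial genes had the largest share of Sox2-EGFP+ only regions of the 16 gene lists. Of 93 regions near 20 epithelial genes, 25 (26.9%) were Sox2-EGFP+ only and 3 (3.23%) Sox2-EGFP- only. Grhl2, a factor that maintains epithelial junctions, had 4 and 1, the splicing regulator Esrp1 3 and 0, and Krt18 2 and 1. Grhl1, Epcam, Cldn4 and Krt8, which encode a sister factor of Grhl2, an adhesion protein, a tight junction protein and a keratin, had 2 and 0 each. The region in an intron of Cdh1, the gene of E-cadherin, at 0.342 kb from the start, ranked 726 and 2041 in the Sox2-EGFP+ lists, with fold enrichments of 11.9 and 6.02, and had no Sox2-EGFP- peak. The 24 genes of the cochlear roof and nonsensory epithelium had 22 Sox2-EGFP+ only (13.2%) and 4 Sox2-EGFP- only regions (2.40%) of 167. Lmx1a, a LIM factor of the duct outside the sensory domain, had 5 and 1, and its region at 189 kb ranked 2629 and 159, the best rank of a Sox2-EGFP+ only region in replicate 2. Kcnq1, a potassium channel of the inner ear, had 4 and 0, and Tecta, of the tectorial membrane, had 3 and 1. Hair cell genes had 7 (6.09%) and 8 (6.96%) of 115 regions, with Atoh1, the factor that starts hair cell formation, at 0 and 2 and Lmo7 at 3 and 1.

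Mesenchymal genes had more Sox2-EGFP- only than Sox2-EGFP+ only regions. Of 216 regions near 28 genes of otic mesenchyme and fibroblasts, 34 (15.7%) were Sox2-EGFP- only and 23 (10.6%) Sox2-EGFP+ only. Beside 4.22% and 10.4% of all regions, the first share was higher and the second was near that of all regions. More Sox2-EGFP- only regions were seen at 12 of the 28 genes and more Sox2-EGFP+ only regions at 9. Dcn, which encodes decorin of the matrix, had 4 Sox2-EGFP- only regions and no Sox2-EGFP+ only region. Of its 13 regions, 9 had a peak in Sox2-EGFP+ replicate 1, 1 in replicate 2 and 6 in Sox2-EGFP-. Foxc1, Foxc2 and Zeb2 each had 3 Sox2-EGFP+ only and 2 Sox2-EGFP- only regions, so the list was not of one direction. In the same order, Six2 had 4 and 0, Pdgfra and Meox1 2 and 0 each, and Tcf21 2 and 1. Pou3f4, the deafness gene of the otic mesenchyme, and Tbx18, of the spiral ligament fibrocytes, had 3 Sox2-EGFP- only regions each. Tbx18 also had 1 Sox2-EGFP+ only region and Pou3f4 had none. All 4 regions near Pou3f4 had a Sox2-EGFP- peak, while Sox2-EGFP+ replicate 1 had 1 and replicate 2 none. The Pou3f4 region at -505 kb, chrX:107504148-107504667, ranked 5543 in Sox2-EGFP-, with a fold enrichment of 7.49.

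Endothelial genes had 21 Sox2-EGFP- only (14.9%) and 15 Sox2-EGFP+ only regions (10.6%) of 141. Ets1, at 8 Sox2-EGFP- only and 3 Sox2-EGFP+ only, Mecom, at 4 and 3, Cdh5, at 2 and 4, and Sox17, at 1 and 2, made up 15 of the 21 and 12 of the 15, so the count rests on few genes. In the next 5 lists the Sox2-EGFP- only count is given first. Macrophage and myeloid genes had 6 (6.52%) and 12 (13.0%) of 92, with 5 of 24 genes, Tyrobp, Fcer1g, Itgam, Cd68 and Lyz2, without any region, and with Csf1r, Ptprc, Cx3cr1, Aif1 and the 3 C1q genes without a called region. Runx1, a factor that many other tissues also use, gave 4 of the 6 and 5 of the 12. Glial genes had 1 (2.0%) and 7 (14.0%) of 50, with Sox10 at 0 and 2 and Egr2 at 0 and 2. Melanocyte genes had 1 (1.64%) and 7 (11.5%) of 61, of which Dct gave 1 and 4. Neuronal genes had 2 (2.17%) and 11 (11.96%) of 92. Erythroid genes had 1 (7.14%) and 2 (14.3%) of 14 regions, and the globin genes Hba-a1, Hbb-b1 and Hbb-b2 had none. In all regions, too, the Sox2-EGFP+ only share was the larger, at 10.4% against 4.22%, and the counts of these lists are small. Ubiquitously expressed genes had 1 Sox2-EGFP- only (1.79%) and 5 Sox2-EGFP+ only regions (8.93%) of 56. The part that other cell types in either gate have in the called regions was not tested.

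Of the signalling lists, Bmp and activin genes had 37 Sox2-EGFP+ only (17.4%) and 7 Sox2-EGFP- only regions (3.29%) of 213, led by Smad7, an inhibitor of the pathway, at 6 and 2, and by the receptor gene Bmpr1b at 4 and 2. Fgf pathway genes had 21 (15.3%) and 6 (4.38%) of 137. The effector Etv5 had 4 and 0, the receptor Fgfr2 3 and 1, the inhibitor Spred2 3 and 2, and the decoy receptor Fgfrl1 3 and 0. Wnt pathway genes had 35 (13.0%) and 18 (6.67%) of 270, both above the background, with Tcf7l2 at 9 and 2, Wnt5a at 3 and 2, Fzd7 at 2 and 3 and Fzd1 at 1 and 3. Notch pathway genes had 12 (9.23%) and 6 (4.62%) of 130, near the background. The receptor gene Notch1 had 4 and 1, the coactivator genes Maml3 and Maml2 3 and 1 and 2 and 0, and Rbpj, the DNA-binding effector of Notch, 0 and 3.

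The shares per call depend on the length of the lists, so the same gene lists were counted among 10000 peaks a sample, the highest outside promoters. Prosensory genes then had 47 and 66 peaks in the Sox2-EGFP+ replicates, 56.5 ± 13.4 (SD, n = 2), and 43 in Sox2-EGFP-. That difference was about as large as the spread between the replicates. Epithelial genes had 22 and 20 peaks against 11, a gap well above the replicate spread of 1.41 (SD, n = 2). Mesenchymal genes had 25 and 31 peaks against 46, and endothelial genes 9 and 16 against 24. Both lay outside the replicate range, the first by more than 3 SD. Roof genes had 22 and 17 against 14, hair cell genes 6 and 9 against 12, and Bmp genes 38 and 37 against 30. Fgf genes had 19 and 20 against 26 and Wnt genes 37 and 40 against 44, so these counts were higher in Sox2-EGFP-, although both lists had more Sox2-EGFP+ only than Sox2-EGFP- only regions. Notch genes, at 29 and 20 against 25, and neuronal genes, at 8 and 14 against 13, had the Sox2-EGFP- value within the range of the replicates. Ubiquitous genes had 8 and 9 against 12. Glial and Schwann cell genes had 9 and 7 against 3, a larger ratio than that of epithelial genes on fewer peaks, and the part of glial cells in the Sox2-EGFP+ lists was not tested. Melanocyte genes had 11 and 6 against 5, macrophage genes 7 and 12 against 13 and erythroid genes 1 and 2 against 6. At single genes, Eya1 had 5 and 11 peaks against 3, Sox2 5 and 5 against 1, Lmx1a 4 and 4 against 0, Gata3 4 and 4 against 1, Ets1 1 and 3 against 8 and Dcn 2 and 2 against 5. These genes were picked with their values known, and the lists did not all go one way. Of the prosensory genes, Fgfr1 had 3 and 1 peaks against 7, Jag1 0 and 1 against 3, and Pax2 none in any list. Of the epithelial genes, Esrp1 had 2 and 2 against 0, but Grhl2 3 and 4 against 3, Epcam 4 and 4 against 3 and Grhl1 1 in each. Of the mesenchymal genes, Pou3f4 had 0 and 0 against 3. Six2 had 2 and 2 against 1, Lum 1 and 2 against 0, and Pdgfra and Snai2 1 and 1 against 0 each.

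**Figure D3:**
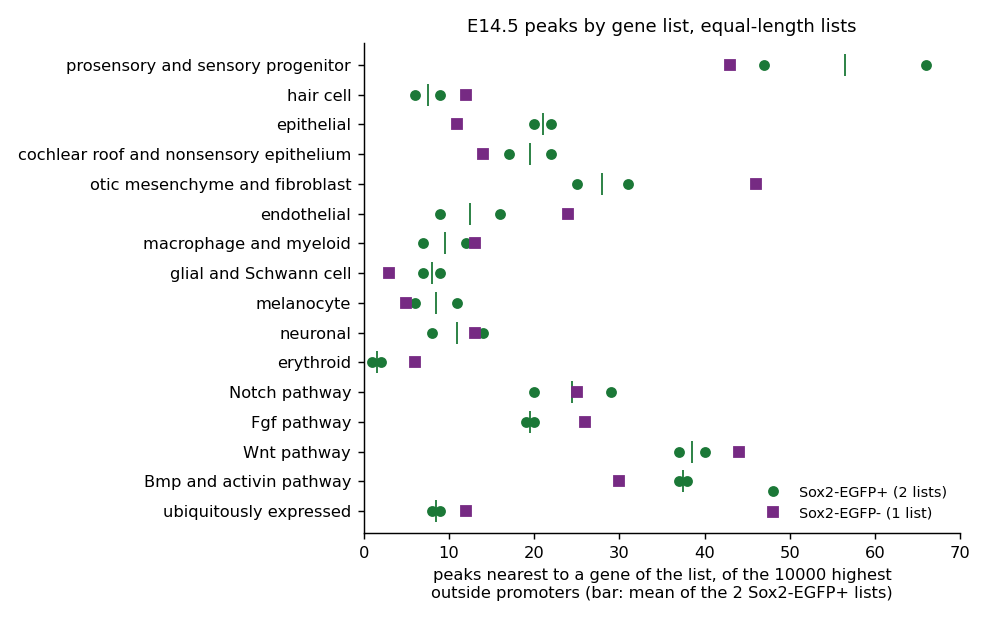
Number of peaks nearest to a gene of each list (x axis) among the 10000 highest peaks outside promoters, for 16 gene lists (y axis); circles are the Sox2-EGFP+ replicates with a bar at their mean, squares the Sox2-EGFP- sample. Epithelial genes lie at 22 and 20 against 11 and mesenchymal genes at 25 and 31 against 46.

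At promoters, 172 regions belonged to genes of the lists, and 86 of them had a peak in all 3 samples. The Sox2-EGFP+ only promoters were 12 (6.98%), beside 4.52% of the 9741 promoter regions of all genes, and were those of Barhl1, Cldn7, Esrp1, Flt1, Gata3, Grhl2, Krt8, Maml3, Otog, Otx1, Pax2 and Spint1. Of them, Cldn7, Esrp1, Grhl2, Krt8 and Spint1 are in the epithelial list, Otog and Otx1 in the roof list and Gata3 and Pax2 in the prosensory list. Barhl1 is in the hair cell list, Flt1 in the endothelial list and Maml3 in the Notch list. The Grhl2 promoter ranked 10232 and 8714, with fold enrichments of 6.37 and 3.92, and the Gata3 promoter 29155 and 10995, with 3.88 and 3.24. The Sox2-EGFP- only promoters were 6 (3.49%), beside 0.811% of all promoter regions, and were those of Col3a1, Col6a3, Prrx1, Fzd10, Smad3 and Wnt5a. Col3a1 and Col6a3 encode fibrillar and microfibrillar collagens and Prrx1 a homeobox factor of mesenchyme. The Col3a1 promoter ranked 21065 and the Prrx1 promoter 22135 of 23263 in Sox2-EGFP-, near the low end of that list.

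Short motifs were counted by exact letters, on both strands, in 301 bp around each summit. Regions outside promoters were used, namely 6706 Sox2-EGFP+ only, 2821 Sox2-EGFP- only and 6978 shared, with all 58953 regions outside promoters as background. That background leans to 1 library. In and outside promoters, 39841 of 68694 regions (58.0%) had a peak in Sox2-EGFP+ replicate 1 alone. GC content was 52.7% in the Sox2-EGFP+ only and 50.2% in the Sox2-EGFP- only windows, while shared windows had 63.4%, farther from either. Of 21 motifs, 12 had intervals that did not overlap between the calls, 4 higher in Sox2-EGFP+ only and 8 higher in Sox2-EGFP- only. The intervals treat regions as independent and come from 1 Sox2-EGFP- library.

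The motif CATTGTT, of Sox factors, was found in 9.26% (8.58 to 9.98) of Sox2-EGFP+ only and in 3.72% (3.05 to 4.49) of Sox2-EGFP- only windows, beside 7.10% of all regions. In windows 2000 bp away the shares were 5.25% and 5.78%, so the motif was above the surrounding sequence in the first set and below it in the second. The Gata motif AGATAAG was found in 5.46% and 2.34%, beside 5.14%, and the Grhl motif AACCNGTT in 3.61% and 1.03%, beside 2.93%. CAGGTG, an E-box read by Zeb and Snail repressors and by E proteins, had the largest difference, with 34.7% (33.6 to 35.9) against 10.7% (9.55 to 11.9), beside 26.4% of all regions. In Sox2-EGFP- only regions this E-box was rarer than in the sequence 2000 bp away, at 19.7%.

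Other motifs were more frequent in Sox2-EGFP- only regions. CAGATG, an E-box read by Atoh1 and by other bHLH factors such as Twist1, was found in 36.5% (34.7 to 38.3) of these and in 21.95% (20.96 to 22.96) of Sox2-EGFP+ only windows, beside 22.6% of all regions and 22.8% and 23.6% in the windows 2000 bp away. The forkhead motif TGTTTAC was found in 7.41% against 3.50%, the Pou motif ATGCAAAT in 3.90% against 1.42%, the Tcf motif CTTTGAT in 8.51% against 4.68% and the Nfi motif TTGGCA in 25.4% against 19.3%. The motif GAGGAAGT, read by the myeloid Ets factor PU.1, was found in 3.40% against 1.58%, while the related letters CCGGAAGT of other Ets factors, which share the last 6 bases, were at 0.567% and 0.447%. The Runx motif AACCACA was at 7.05% against 5.25% and the AP1 motif TGANTCA at 11.1% against 9.02%. The intervals of the Tead motif CATTCCA, of the Ebf motif TCCCNNGGG and of Irf GAAANNGAA overlapped between the calls. So did those of Ctcf, Rfx, Sp, Nrf1, Ets and Mef2, each at or below 2.43% in both sets.

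**Figure D4:**
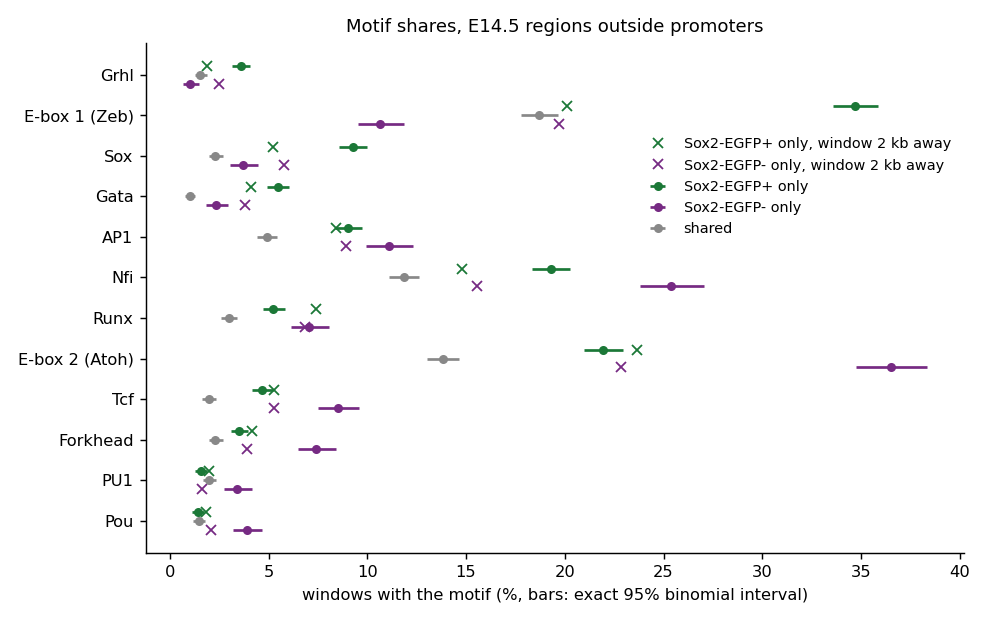
Percent of windows outside promoters that hold a motif (x axis) for the 12 motifs whose intervals did not overlap between the calls (y axis); circles with exact 95% binomial intervals for Sox2-EGFP+ only, Sox2-EGFP- only and shared regions, and crosses for the windows 2000 bp away. The CAGGTG E-box stands at 34.7% against 10.7% and the CAGATG E-box at 21.95% against 36.5%.

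For each of the 7 motifs whose intervals did not overlap and that were at least 2 times as frequent in 1 of the calls, the region in which it lay nearest to the summit, among the 2000 with the best mean rank of that call, is given, to show where the letters sit. The first 4 are Sox2-EGFP+ only regions with, in order, a Grhl, a CAGGTG, a Sox and a Gata motif.
6330403A02Rik region, chr1:182351088-182351208: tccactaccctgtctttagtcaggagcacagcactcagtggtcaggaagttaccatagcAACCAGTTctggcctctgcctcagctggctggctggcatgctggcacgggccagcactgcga
Gucy1b3 region, chr3:81852055-81852175: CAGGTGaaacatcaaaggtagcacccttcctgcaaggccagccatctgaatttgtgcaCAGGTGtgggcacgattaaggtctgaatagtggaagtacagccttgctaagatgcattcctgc
Nfe2 region, chr15:103080951-103081071: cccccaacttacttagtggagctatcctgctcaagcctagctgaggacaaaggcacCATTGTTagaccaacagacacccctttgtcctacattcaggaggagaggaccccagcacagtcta
Mycn region, chr12:12993927-12994047: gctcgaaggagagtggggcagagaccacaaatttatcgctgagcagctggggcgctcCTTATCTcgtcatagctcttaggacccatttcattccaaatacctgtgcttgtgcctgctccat

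The next 3 are Sox2-EGFP- only regions with a forkhead, a PU.1 and a Pou motif.
Pam region, chr1:99980562-99980682: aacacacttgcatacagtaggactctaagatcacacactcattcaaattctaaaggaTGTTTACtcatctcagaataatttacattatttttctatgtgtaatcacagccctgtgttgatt
Tns3 region, chr11:8358070-8358190: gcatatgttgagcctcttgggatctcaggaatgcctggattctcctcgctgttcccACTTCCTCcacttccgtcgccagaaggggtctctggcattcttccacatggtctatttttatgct
Lamc1 region, chr1:155156108-155156228: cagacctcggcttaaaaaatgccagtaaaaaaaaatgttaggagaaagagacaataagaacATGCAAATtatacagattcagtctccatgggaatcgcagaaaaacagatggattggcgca

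In the Sox2-EGFP+ only set, 28.5% of windows with a Sox motif had it within 30 bp of the summit, a stretch that makes up 20.3% of the window. In Sox2-EGFP- only windows, 30.9% of those with a Pou motif and 26.3% of those with CAGATG had it there, against 16.2% for the Sox motif. The copy nearest to the summit was counted in each window. Several copies in a window therefore raise the share above 20.3% without central placement, most for a frequent motif such as CAGATG. The Pou share rests on the 3.90% of 2821 windows with that motif. Central placement was not tested.

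The same motifs were counted in the 2000 highest peaks outside promoters of each list, where the replicates can be set against each other. The Sox motif was in 6.45% and 5.50% of peaks of the Sox2-EGFP+ replicates, 5.98% ± 0.672 (SD, n = 2), and in 2.40% of Sox2-EGFP- peaks. CAGGTG was in 23.3% and 23.2% against 12.7%, Gata in 3.00% and 2.35% against 1.05%, and Grhl in 2.40% and 2.50% against 1.20%. In these 4 motifs the Sox2-EGFP- value lay below both replicates by more than the gap between them. In windows 2000 bp away, the 3 lists had 5.30% to 5.95% for Sox, 17.75% to 19.7% for CAGGTG, 3.50% to 5.05% for Gata and 2.20% to 2.80% for Grhl. The Sox2-EGFP- value lay below these ranges in all 4 motifs. Only CAGGTG lay above its range in both Sox2-EGFP+ replicates, and Gata lay below its range in both. CAGATG was in 12.2% and 13.2% against 14.0%, a difference within 2 SD of the replicates, and the Pou, Tcf and PU.1 motifs also differed by less than 3 SD. The forkhead motif was in 2.40% and 2.65% against 2.00%, the reverse of the order in the called regions. The order was also reversed for Nfi, at 12.6% and 13.7% against 11.7%, and for AP1, at 5.55% and 5.05% against 4.45%, and Runx, at 3.10% and 3.60% against 3.35%, lay within the range of the replicates. The highest peaks were rich in CpG, with 18.4, 18.3 and 22.3 CpG per window against 5.80 and 4.85 in the called regions. In equal lists of 10000 peaks outside promoters, the order of the called sets was kept for the Sox motif, at 11.7% against 3.31%, for CAGGTG, at 33.5% against 13.1% and for CAGATG, at 18.7% against 28.8%. The other motifs in these sets are not given here. These Sox2-EGFP+ only windows held 7.62 CpG and the Sox2-EGFP- only windows 10.7, the reverse of the order in the called regions of the whole lists.

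The 4 lists of E16, 2 of each kind and from other libraries, show how the E14.5 calls fared at a later stage. They were grouped by their titles, which the cell type tags of 3 of them contradict. Of the 7146 Sox2-EGFP+ only regions, 78.1% had a peak in E16 Sox2-EGFP+ replicate 1 and 92.7% in replicate 2, against 5.65% and 5.64% in the E16 Sox2-EGFP- replicates. Both E16 Sox2-EGFP+ lists and neither E16 Sox2-EGFP- list held a peak at 5096 regions, 71.3% (70.2 to 72.4), a share that was 67.6% without Sox2-EGFP+ replicate 1 and 34.7% without replicate 2. These regions lack an E14.5 Sox2-EGFP- peak by the call. The authors' filter therefore kept an E16 Sox2-EGFP- peak there, as a rule, only where the other E16 Sox2-EGFP- list had one. The low Sox2-EGFP- shares, and the lack of E16 Sox2-EGFP- peaks within the 71.3%, are thus shaped in part by the filter. No E16 list held a peak at 417 regions (5.84%). The share followed the rank at E14.5: it was 92.2% in the 1787 regions with the best mean ranks and 33.9% in the 1786 with the lowest. A peak in either E16 Sox2-EGFP- list was seen at 6.49% and 4.59% of these, so low rank went with fewer peaks in both kinds. The best-ranked region of all, that of Zfp36l2, was in all 4 E16 lists.

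Of the 2900 Sox2-EGFP- only regions, 78.8% and 77.7% had a peak in the E16 Sox2-EGFP- replicates and 0.379% in each E16 Sox2-EGFP+ replicate. All 2900 had a peak in at least 1 E16 Sox2-EGFP- list, because the authors' filter kept an E14.5 Sox2-EGFP- peak only where another Sox2-EGFP- list, all of which are from E16, had one. Neither E16 Sox2-EGFP+ list held a peak at 2886 regions, 99.5% (99.2 to 99.7). The share was 35.4% without Sox2-EGFP+ replicate 1, whose list is the longest. It is also shaped by the filter, which dropped a Sox2-EGFP+ peak seen in a single list. Both E16 Sox2-EGFP- lists held a peak at 1629 regions without a Sox2-EGFP+ peak, 56.2%. The filter is looser for Sox2-EGFP+ only regions, which already have a peak in 2 lists of their kind, so their E16 Sox2-EGFP+ values do not follow from it. Their lack of a Sox2-EGFP- peak may come from the filter, since an E14.5 Sox2-EGFP- peak without an E16 counterpart was removed.

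**Figure D5:**
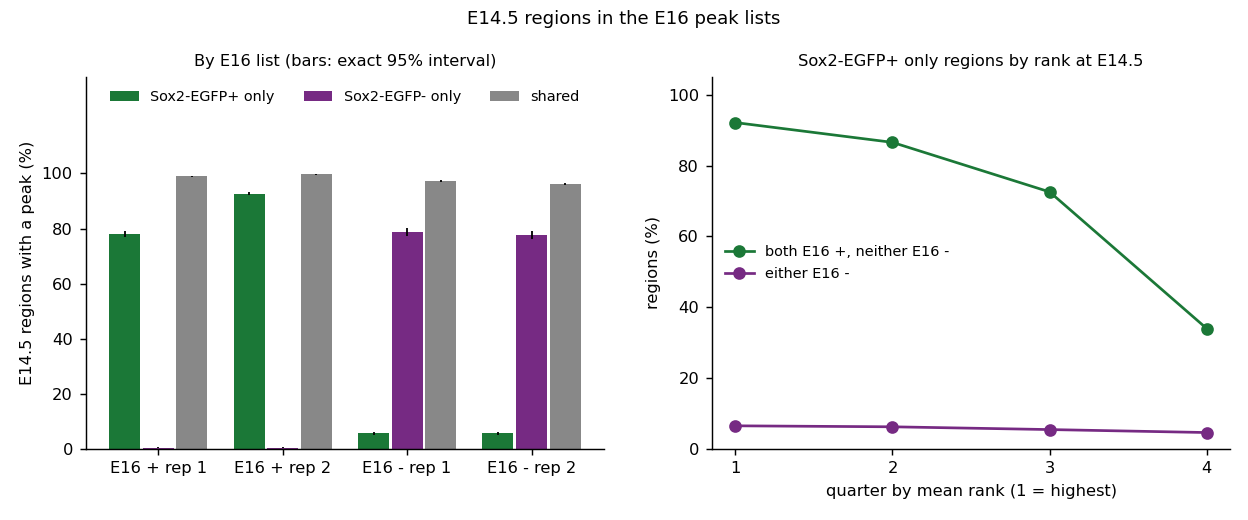
Left, bars give the percent of E14.5 regions with a peak (y axis) in each of the 4 E16 lists (x axis) for Sox2-EGFP+ only, Sox2-EGFP- only and shared regions, with exact 95% binomial intervals. Right, percent of Sox2-EGFP+ only regions (y axis) with a peak in both E16 Sox2-EGFP+ lists and neither E16 Sox2-EGFP- list, or in either E16 Sox2-EGFP- list, by mean rank at E14.5 in 4 equal parts (x axis); the first falls from 92.2% to 33.9%.

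By gene list, 25 of 25 epithelial Sox2-EGFP+ only regions, 47 of 60 prosensory ones and 15 of 22 roof ones had a peak in both E16 Sox2-EGFP+ lists and in neither E16 Sox2-EGFP- list, beside 71.3% of all Sox2-EGFP+ only regions. At Sox2, 6 of its 7 regions did so, and at Eya1 10 of 10. Of the mesenchymal Sox2-EGFP- only regions, 22 of 34 had a peak in both E16 Sox2-EGFP- lists and in neither E16 Sox2-EGFP+ list, and of the endothelial ones 13 of 21, beside 56.2% of all Sox2-EGFP- only regions. The prosensory, roof, mesenchymal and endothelial shares were near those of all regions. Of the 23 mesenchymal Sox2-EGFP+ only regions, 16 kept their call. The macrophage list had 3 of 12 and the neuronal list 5 of 11.

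Regions open in all 3 samples were compared by rank, which does not depend on the height of a list. Ranks were taken among the 13710 shared regions, and a region was called where the Sox2-EGFP- rank differed at least 2 times from both Sox2-EGFP+ ranks, in the same direction. The Sox2-EGFP+ replicates themselves differed by a median of 1.42 times. A higher rank in both Sox2-EGFP+ lists was seen at 559 regions (4.08%) and a higher rank in Sox2-EGFP- at 752 (5.49%). With a single Sox2-EGFP+ list the rule asks for less, and the counts were 1642 and 1648 without replicate 1 and 2172 and 2094 without replicate 2. Promoters made up 46.7% of the former and 58.1% of the latter, beside 49.1% of shared regions.

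The region at 119 kb from the start of E130114P18Rik ranked 164 and 26 in the Sox2-EGFP+ lists and 10121 in Sox2-EGFP-. The promoter of Fa2h, an enzyme of sphingolipid hydroxylation, ranked 60 and 425 against 8065. The other 3 regions with the largest ratio in this direction were the promoters of Pcf11 and Efcab1 and an intron of Pdlim5. In the other direction, the region in an exon of Adam10, 0.175 kb from the start of this sheddase of Notch, ranked 5274 and 1733 against 55, and its fold enrichments were 9.25, 6.39 and 9.58. The region at 94.6 kb from Phlda1 ranked 9781 and 7145 against 392. The remaining regions were those nearest to Cr2 and the promoters of Rspry1 and Slc1a4.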

How the data were processed

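The authors used Trim Galore for trimming, Bowtie2 for alignment to mm9, Picard and SAMtools to drop duplicate and mitochondrial reads, and MACS2 for peak calling per sample. Versions are not given in the sources used here. For each peak the deposited lists give a fold enrichment (a ratio), a −log10 p, a −log10 q, a summit and a score, which is 10 times the −log10 q in whole numbers. The authors discarded peaks without a counterpart in a further list of that kind. Reads and read totals were not used here. Here, lists were ranked by −log10 p, merged at 100 bp, and annotated with GENCODE protein-coding starts, using Python 3.11.15 with SciPy 1.17.1. Peaks on other contigs were left out. Intervals are exact 95% binomial. Region calling and motif counting were tested on simulated data. The members and gene lists were chosen with earlier results of these data known. Named genes were the best-ranked regions, the genes with the most called regions and, in each list, up to 4 genes with the most called regions, and others were added with their values known. Alternatives were peak threshold, merging distance, overlap, chromosomes, list length, ranking by fold enrichment, window width and leaving out each replicate. The E12 lists, which have no Sox2-EGFP- counterpart, were not used. The counts of 1 further motif are not reported here.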

Additional observations from a re-analysis of the deposited data

Results flagged for a closer look

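Of the 7146 Sox2-EGFP+ only regions, 4 (0.056%) had the opposite pattern at E16, with a peak in both Sox2-EGFP- lists and in neither Sox2-EGFP+ list. They stood out because every sample pointed one way at E14.5 and the other way at E16, and this difference was not tested. The agreement of the 2 E16 Sox2-EGFP- lists adds no weight. At a region without an E14.5 Sox2-EGFP- peak, the filter as a rule kept an E16 Sox2-EGFP- peak only where both of these lists had one. The region in an exon of Artn, which encodes a neurotrophic ligand, had a −log10 p of 15.96 in Sox2-EGFP+ replicate 1 and 4.47 in replicate 2. The region nearest to Fam162b had 17.0 and 5.44, that nearest to Amigo2, an adhesion protein, 6.40 and 5.50, and the promoter region of Gria3, a glutamate receptor subunit, 5.01 and 6.30. All 4 ranked low, at 43297 or lower in replicate 1 and 19705 or lower in replicate 2. The reverse could not occur, since each deposited E14.5 Sox2-EGFP- peak has a counterpart in an E16 Sox2-EGFP- list.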

How the results depend on the processing

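Of 87 alternatives over 9 results, 37 kept the value and 50 moved it. Sox2-EGFP+ only regions outnumbered Sox2-EGFP- only ones in the whole lists, and the order turned round with equal list lengths and without Sox2-EGFP+ replicate 1. Equal list lengths moved the most, by construction, since a region absent from a shortened list can have a lower peak there. With the 20000, 10000, 5000 and 2000 highest peaks of each list, Sox2-EGFP+ only regions numbered 3748, 1682, 733 and 298. Sox2-EGFP- only regions numbered 5037, 1073 and 492 with 20000, 5000 and 2000. The shares outside promoters were 92.2%, 82.3%, 67.5% and 48.0% for Sox2-EGFP+ only and 87.3%, 67.4%, 46.4% and 34.6% for Sox2-EGFP- only. The E16 shares were 81.6%, 52.9%, 32.3% and 14.4% for Sox2-EGFP+ only regions in both E16 Sox2-EGFP+ lists and neither Sox2-EGFP- list, and 41.6%, 16.6%, 6.24% and 2.03% for Sox2-EGFP- only regions in neither E16 Sox2-EGFP+ list. Equal lists outside promoters were added after seeing the data, and with 10000, 5000, 2000 and 1000 peaks gave 2945, 1421, 482 and 210 Sox2-EGFP+ only regions, and with 10000, 2000 and 1000 gave 4566, 929 and 468 Sox2-EGFP- only regions. A −log10 q of at least 5 gave 3966 and 1761 regions, 91.3% of Sox2-EGFP+ only outside promoters, and 95.7% of Sox2-EGFP- only in neither E16 Sox2-EGFP+ list, which was 99.1% with merging at 0 bp and 96.5% with an overlap of 50%. The difference in the Sox motif of 3.57 percentage points was 4.62 with ranking by fold enrichment. Leaving out each Sox2-EGFP+ replicate in turn gave 7753 to 47012 Sox2-EGFP+ only and 2930 to 8441 Sox2-EGFP- only regions, 92.5% to 95.8% and 83.8% to 97.3% outside promoters, E16 shares of 34.7% to 67.6% and 35.4% to 98.6%, and 1642 to 2172 shared regions ranked higher in Sox2-EGFP+ and 1648 to 2094 higher in Sox2-EGFP-. The single Sox2-EGFP- sample could not be left out. No paired analysis was possible because the groups compared share only replicate number 2. Leaving out replicate 1 compares the libraries of that number, which the sources used here do not state to come from the same litter.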
